A study of Mus musculus with 14 samples.

Results

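The 5 subunits of the transcription factor NF-κB (*Rela*, *Relb*, *Rel*, *Nfkb1* and *Nfkb2*) and 5 of its feedback inhibitors (*Nfkbia*, *Nfkbie*, *Nfkbiz*, *Tnfaip3* and *Bcl3*) were followed in mouse liver after bile diversion or gastric bypass. They were chosen by symbol: each of the 10 had 1 row among the 25212 genes of the count table, and all 10 had enough reads to be tested. Liver RNA of 14 male C57BL/6 mice with diet-induced obesity was sequenced with 1 library per liver. A high fat diet (HFD) was given to every group before and after the time of surgery, and the labels give no age. The DIO group (n = 5) had no surgery, so it is not a sham-operated control. In the GB-IL group (n = 4) the common bile duct was ligated and the gallbladder joined to the ileum, and the RYGB group (n = 5) had a Roux-en-Y gastric bypass. The labels place the livers of all groups at 8 weeks, counted in the operated mice from surgery, whereas the legend of a panel of liver genes in the paper gives an earlier time.

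NF-κB is a dimer of subunits that is held in the cytoplasm by inhibitor proteins until a kinase complex, activated by cytokine or endotoxin receptors, marks the inhibitor for destruction. The freed dimer enters the nucleus and switches on inflammatory genes together with its own inhibitors, which then end the signal. RelA with the *Nfkb1* product carries out the fast, canonical response, and RelB with the *Nfkb2* product the slower, non-canonical one. In liver the pathway is active in Kupffer cells and recruited leukocytes, and it protects hepatocytes from death induced by tumour necrosis factor.

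Several of these genes are textbook NF-κB targets, so the letters of their promoters are shown beside their levels. RefSeq promoter windows on GRCm38.p6, from 250 bases before to 50 bases after a start site, were found for 7 of the 10 genes (10 windows). *Relb*, *Nfkb1* and *Nfkbiz* had no entry. The κB decamer consensus, searched on both strands with overlapping matches allowed, was present in 8 of the 10 windows and in 6 of the 7 genes, *Rela* being without a match. Of all 32851 promoters of that length, 8.46% held a match and 1.22% held 2 or more. A match is a description of the letters and not a binding site. The 250 bases upstream of *Nfkbia* and *Nfkbie* are shown whole because they hold no annotated exon of the gene. In the others, 30 bases around a match are shown. Lines run 5′ to 3′ on the strand of the gene, and capitals mark the κB match, or 2 matches overlapping by all but 1 base where 11 capitals stand together.
*Nfkbia*, chr12:55492648-55492897, minus strand: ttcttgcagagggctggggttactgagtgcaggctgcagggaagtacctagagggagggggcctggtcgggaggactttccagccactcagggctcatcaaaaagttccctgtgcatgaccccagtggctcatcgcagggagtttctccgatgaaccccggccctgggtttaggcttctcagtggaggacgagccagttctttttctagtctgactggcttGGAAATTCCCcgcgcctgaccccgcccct
*Nfkbie*, chr17:45555450-45555699, plus strand: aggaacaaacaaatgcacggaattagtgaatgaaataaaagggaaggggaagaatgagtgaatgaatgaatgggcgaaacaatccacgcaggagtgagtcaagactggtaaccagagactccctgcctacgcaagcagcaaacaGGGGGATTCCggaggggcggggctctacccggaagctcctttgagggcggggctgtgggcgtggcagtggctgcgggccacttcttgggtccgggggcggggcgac
*Nfkb2*, chr19:46304688-46304717, plus strand: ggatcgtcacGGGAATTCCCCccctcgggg
*Nfkb2*, chr19:46304716-46304745, plus strand: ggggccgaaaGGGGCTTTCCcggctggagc
*Nfkb2*, shared by its other windows, chr19:46305695-46305724, plus strand: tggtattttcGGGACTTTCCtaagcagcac
*Rel*, chr11:23771042-23771071, minus strand: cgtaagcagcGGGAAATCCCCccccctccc
*Tnfaip3*, chr10:19015516-19015545, minus strand: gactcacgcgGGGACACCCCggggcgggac
*Tnfaip3*, chr10:19015403-19015432, minus strand: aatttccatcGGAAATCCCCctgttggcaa
*Bcl3*, chr7:19822734-19822763, minus strand: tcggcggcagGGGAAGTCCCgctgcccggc
Counted from the start site as 0, the first *Nfkb2* window held matches beginning at positions -39 and -11. Another *Nfkb2* window held a match beginning at -236, not printed above, besides the shared one. The *Nfkbia* match began at position -29 and the *Nfkbie* match at -106. *Tnfaip3* had matches beginning at -125 and -12 in its first window and none in the other, the *Rel* match began at -92 and the *Bcl3* match at 2.

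The deposited totals lay between 18223135 and 28656631 counts per liver. GB-IL livers differed more from each other (common biological coefficient of variation 0.541) than DIO livers (0.244) or RYGB livers (0.295). The first principal component (48.5% of the variance) placed GB-IL liver 4 at -35.3, within the DIO livers (-45.7 to -21.9), and GB-IL livers 1 to 3 at 134, 106 and 20.1. Results of GB-IL are therefore also given without liver 4, a choice made from these same values. Levels are given as CPM, the counts of a gene relative to the library total scaled by edgeR's TMM factors, at the usual CPM scale. Differences are log2 fold changes with standard errors (SE) from edgeR's quasi-likelihood test over 14252 genes, and a gene is called at an adjusted p (Benjamini-Hochberg) below 0.05. Hepatocyte markers, among them albumin, summed to between 111156 and 141237 CPM per liver in DIO. The sums were 85782 to 121361 CPM in GB-IL and 110918 to 135612 CPM in RYGB.

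In GB-IL compared with DIO, *Relb*, *Nfkb2*, *Tnfaip3* and *Nfkbiz* rose, so 4 of the 10 genes were called higher and none lower, where 3.15% of all genes tested were called higher. All 10 fold changes were above 0 and 7 of the 10 had an unadjusted p below 0.05 in the higher direction (16.7% of all genes tested). Over the 10 genes the log2 fold changes had a median of 0.89, and over all genes tested of 0.04. For *Tnfaip3* alone the lowest GB-IL liver exceeded the highest DIO liver, a separation found in 2.67% of all genes tested. In bulk tissue, more cells of a type and more RNA per cell cannot be told apart.

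**Figure D1:**
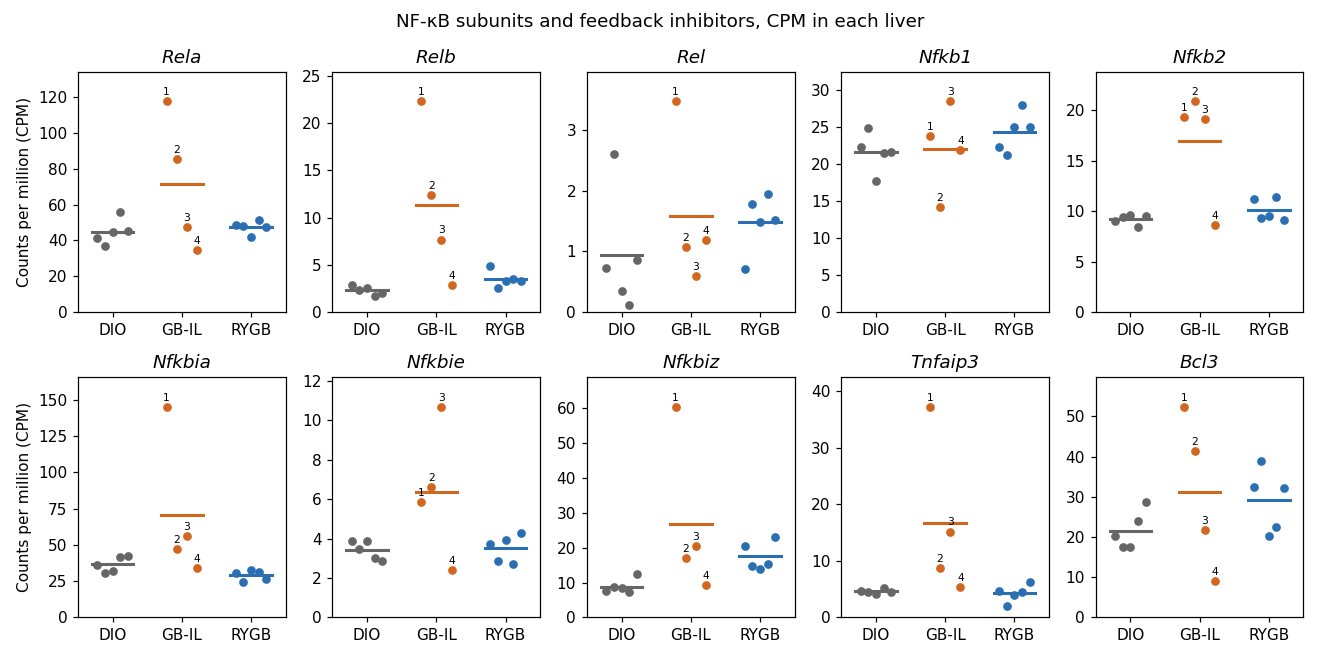
Each panel plots the CPM of 1 gene (vertical axis, from 0) in each liver of the DIO (grey), GB-IL (orange) and RYGB (blue) groups, with a bar at the group mean and the GB-IL livers numbered. GB-IL livers 1, 2 and 3 lie above every DIO liver for *Relb*, *Nfkb2*, *Nfkbia*, *Nfkbie*, *Nfkbiz* and *Tnfaip3*, whereas liver 4 does so for *Tnfaip3* alone.

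*Relb* (ENSMUSG00000002983, chromosome 7, 19606217 to 19629438, GRCm38) encodes the transactivating subunit of the non-canonical dimer. Its level was 2.88, 2.31, 2.60, 1.75 and 2.02 CPM in DIO livers 1 to 5, and 22.3, 12.4, 7.68 and 2.88 CPM in GB-IL livers 1 to 4. Livers 1, 2 and 3 exceeded every DIO liver, and liver 4 equalled DIO liver 1 at this precision. The log2 fold change was 2.28 (SE 0.422, adjusted p = 0.0278, edgeR), the largest of the 10 genes. In RYGB livers 1 to 5 it had 4.87, 2.56, 3.27, 3.48 and 3.32 CPM, with 4 of 5 above every DIO liver, and the log2 fold change of 0.60 (SE 0.399) was not called (adjusted p = 0.704, edgeR). These levels rest on 31 to 55 reads per liver in DIO and on 78 to 424 in GB-IL.

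*Nfkb2* (ENSMUSG00000025225, chromosome 19, 46304320 to 46312385) encodes the precursor that is processed into the partner of RelB. It had 9.002, 9.40, 9.67, 8.43 and 9.52 CPM in DIO livers 1 to 5 and 19.3, 20.9, 19.1 and 8.60 CPM in GB-IL livers 1 to 4. The first 3 GB-IL livers lay close together at over 19 CPM, while liver 4 lay among the DIO livers. The log2 fold change was 0.88 (SE 0.214, adjusted p = 0.0390, edgeR). RYGB livers had 9.10 to 11.4 CPM, with a log2 fold change of 0.14 (SE 0.203, adjusted p = 0.880, edgeR). The last 299 bases of the gene overlap *Psd* on the opposite strand, which had 649 counts over all 14 livers, and whether counting used strand is not given in the sources used here.

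*Rela* (ENSMUSG00000024927, chromosome 19, 5637483 to 5648130) encodes the main canonical transactivator. It had 37.0 to 55.8 CPM in DIO and 118, 85.3, 47.3 and 34.6 CPM in GB-IL livers 1 to 4. Livers 1 and 2 lay above every DIO liver, liver 3 among them and liver 4 below every one. The log2 fold change of 0.67 (SE 0.274) was not called (adjusted p = 0.169, edgeR). In RYGB it had 41.7 to 51.4 CPM, all within the DIO range.

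*Nfkb1* (ENSMUSG00000028163, chromosome 3, 135584655 to 135691547), whose product pairs with RelA, had 17.7 to 24.8 CPM in DIO, 14.2 to 28.5 CPM in GB-IL and 21.3 to 28.0 CPM in RYGB. Its log2 fold change in GB-IL was 0.03 (SE 0.183, adjusted p = 0.926, edgeR), the smallest of the 10 genes, and its sign turned with single livers left out. GB-IL liver 2, with high *Rela* and *Relb*, had the lowest *Nfkb1* of all 14 livers. *Rel* (ENSMUSG00000020275, chromosome 11, 23736847 to 23770970), the subunit known for its part in lymphocytes and myeloid cells, was near the limit of detection, with 2 to 66 reads per liver. It had 0.113 to 2.61 CPM in DIO and 0.594 to 3.47 CPM in GB-IL, and the log2 fold change of 0.73 (SE 0.655) was not called (adjusted p = 0.483, edgeR). It was 0.0078 without GB-IL liver 1 and 1.59 without DIO liver 2.

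The subunits stood at different levels. With CPM divided by exon length (CPM per kb of merged exons, GENCODE M21), *Rela* made up 76.0% ± 4.10 (SD, n = 5) of the summed level of the 5 subunits in DIO, 71.6% ± 5.32 (SD, n = 4) in GB-IL and 74.3% ± 1.76 (SD, n = 5) in RYGB. *Relb* made up 3.17% ± 0.805 (SD, n = 5) in DIO, 8.22% ± 2.73 (SD, n = 4) in GB-IL and 4.34% ± 0.957 (SD, n = 5) in RYGB. The *Relb* share in GB-IL livers 1 to 4 was 11.3%, 8.65%, 8.23% and 4.67%, each above the highest DIO liver at 4.08%. GB-IL liver 4, whose *Relb* CPM did not exceed DIO, was thus the lowest of its group also as a share. In RYGB livers 1 to 5 the *Relb* share was 5.84%, 3.25%, 4.49%, 3.94% and 4.17%. RYGB livers 1, 3 and 5 thus also lay above the highest DIO liver, and RYGB liver 1 above GB-IL liver 4. The *Nfkb1* share was 3.89% and 3.19% in GB-IL livers 1 and 2, under the lowest DIO liver at 7.78%, and 9.83% and 11.4% in livers 3 and 4. These shares are descriptions of the same counts and were not tested.

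**Figure D2:**
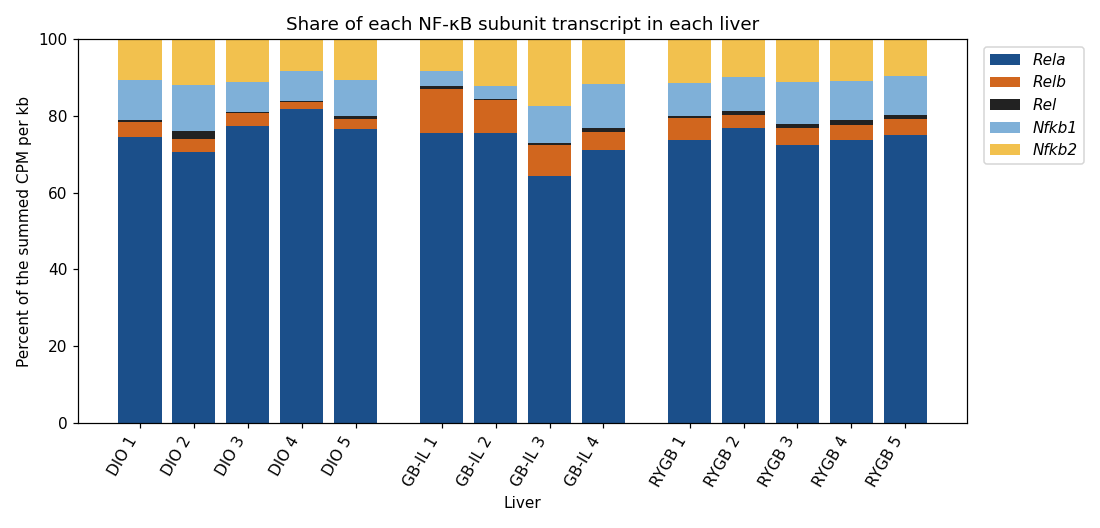
Stacked bars give the percent of the summed CPM per kb of the 5 NF-κB subunit transcripts (vertical axis) in each of the 14 livers. *Rela* holds 64.2% to 81.7% of every bar, and the *Relb* segment is widest in GB-IL livers 1, 2 and 3 at 8.23% to 11.3%.

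*Tnfaip3* (ENSMUSG00000019850, chromosome 10, 19000910 to 19015657) encodes a ubiquitin-editing enzyme that shuts off signalling upstream of the kinase complex. It had 4.66, 4.53, 4.17, 5.15 and 4.47 CPM in DIO livers 1 to 5 and 37.3, 8.70, 15.2 and 5.42 CPM in GB-IL livers 1 to 4. Each GB-IL liver exceeded every DIO liver, liver 4 by less than 1 CPM. It rose by 1.85 on the log2 scale (SE 0.443, adjusted p = 0.0365, edgeR). RYGB livers had 4.59, 2.02, 3.94, 4.43 and 6.33 CPM, on both sides of DIO, with a log2 fold change of -0.10 (SE 0.420, adjusted p = 0.957, edgeR).

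*Nfkbiz* (ENSMUSG00000035356, chromosome 16, 55811375 to 55838899) encodes IκBζ, a nuclear protein that is induced by NF-κB and promotes a subset of its targets besides restraining others. It had 7.54, 8.76, 8.45, 7.19 and 12.4 CPM in DIO and 60.4, 17.1, 20.6 and 9.33 CPM in GB-IL livers 1 to 4. Livers 1, 2 and 3 lay above every DIO liver and liver 4 below DIO liver 5. In GB-IL the log2 fold change was 1.60 (SE 0.402, adjusted p = 0.0437, edgeR), the nearest to the threshold of those called. In RYGB livers 1 to 5 it had 20.5, 14.7, 13.8, 15.2 and 23.1 CPM, and all 5 lay above every DIO liver. Its log2 fold change in RYGB was 0.98 (SE 0.382, unadjusted p = 0.0218 and adjusted p = 0.515, edgeR). That fit shares its spread with the more variable GB-IL livers. A fit of the RYGB and DIO livers alone gave an adjusted p of 0.0620 (edgeR), also not called, where it called 33 of all genes.

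*Nfkbia* (ENSMUSG00000021025, chromosome 12, 55489410 to 55492647) encodes IκBα, the inhibitor resynthesised first after NF-κB activation. It had 36.1, 30.6, 32.2, 41.8 and 42.6 CPM in DIO and 145, 47.2, 55.9 and 33.8 CPM in GB-IL livers 1 to 4, so 3 of 4 exceeded every DIO liver. The log2 fold change of 0.94 (SE 0.320) was not called (adjusted p = 0.108, edgeR). In RYGB it had 30.8, 24.3, 32.7, 31.5 and 26.2 CPM, 2 of 5 below every DIO liver, and the log2 fold change was -0.33 (SE 0.304, adjusted p = 0.788, edgeR). *Nfkbie* (ENSMUSG00000023947, chromosome 17, 45555703 to 45563169), which encodes IκBε, had 2.88 to 3.87 CPM in DIO and 5.83, 6.61, 10.7 and 2.40 CPM in GB-IL livers 1 to 4. Livers 1, 2 and 3 lay above every DIO liver and liver 4 below every one. Its log2 fold change of 0.90 (SE 0.320) was not called (adjusted p = 0.123, edgeR), and RYGB livers had 2.73 to 4.26 CPM.

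*Bcl3* (ENSMUSG00000053175, chromosome 7, 19808462 to 19822770) encodes an atypical inhibitor protein that acts on DNA-bound dimers in the nucleus. It lies 179.0 kb from *Relb* with 10 protein-coding genes between them. It had 17.5 to 28.6 CPM in DIO, 52.4, 41.3, 21.8 and 9.04 CPM in GB-IL livers 1 to 4, and 20.2 to 39.0 CPM in RYGB. GB-IL livers 1 and 2 were the highest of all 14 livers and GB-IL liver 4 the lowest. Its difference on the log2 scale was 0.53 in GB-IL (SE 0.374, adjusted p = 0.385, edgeR) and 0.44 in RYGB (SE 0.355, adjusted p = 0.756, edgeR), and under voom with sample quality weights the GB-IL value was -0.16. The antisense genes *Gm16175* and *Gm16174* overlap it, with 56 and 473 counts over all livers.

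**Figure D3:**
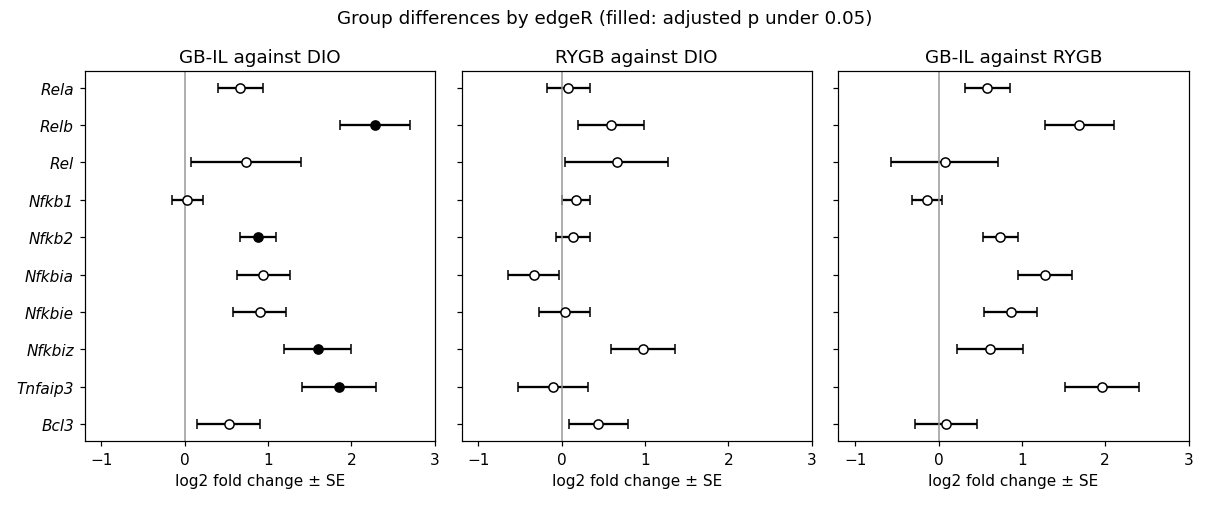
Points give the log2 fold change of each gene (horizontal axis) with its SE for GB-IL against DIO, RYGB against DIO and GB-IL against RYGB, filled where the adjusted p is below 0.05. Filled points are *Relb*, *Nfkb2*, *Nfkbiz* and *Tnfaip3* in the first panel, and the other panels hold none.

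Per length, the order of levels in DIO was *Nfkbia* (22.8 CPM per kb ± 3.39, SD, n = 5), *Rela* (14.6 ± 2.27), *Bcl3* (8.72 ± 1.91), *Nfkb2* (2.01 ± 0.109), *Nfkb1* (1.79 ± 0.214), *Nfkbiz* (1.76 ± 0.410), *Nfkbie* (1.12 ± 0.153), *Tnfaip3* (0.636 ± 0.0494), *Relb* (0.595 ± 0.115) and *Rel* (0.125 ± 0.131). Neighbours whose DIO ranges overlapped were *Nfkb2* with *Nfkb1*, *Nfkb1* with *Nfkbiz*, and *Tnfaip3* with *Relb*. In GB-IL the mean of *Nfkbiz* was 5.35 CPM per kb ± 4.55 (SD, n = 4), that of *Relb* 2.91 ± 2.13 and that of *Tnfaip3* 2.30 ± 1.99, with *Nfkb1* at 1.83 ± 0.493. The GB-IL ranges of these 4 genes overlapped.

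GB-IL liver 1 was the highest of its group for 7 of the 10 genes and liver 4 the lowest for 8. Against the DIO range, liver 1 lay above for 9 genes, liver 2 for 8, liver 3 for 7 and liver 4 for 1, and liver 4 lay below every DIO liver for *Rela*, *Nfkbie* and *Bcl3*. The share of all genes above the DIO range was not computed for single livers. Livers 1 and 2 also lay farthest from DIO on the first principal component, so these counts may not be particular to the 10 genes. Without liver 4, 8 of the 10 genes were called higher, the exceptions being *Rel* and *Nfkb1*, where 15.4% of 14492 genes tested were called higher. The adjusted p was then 0.000368 for *Relb*, 0.000534 for *Nfkb2*, 0.00265 for *Tnfaip3* and 0.00290 for *Nfkbiz* (edgeR). Liver 4 was picked from these same values because it lay among the DIO livers, so leaving it out favours calls. Over all genes the calls went from 465 to 3572, and these p-values cannot be taken at face value. The 4 calls were close to the threshold with all livers. None of the 10 genes was called when GB-IL liver 1, GB-IL liver 2 or any 1 of the 5 DIO livers was left out. Each of these omissions called 0 of all genes tested, so the loss was not particular to the 10. Over these and the other single omissions the adjusted p of *Relb* reached 0.0942 (edgeR). Without GB-IL liver 1 the log2 fold change was 1.07 for *Tnfaip3*, 0.81 for *Nfkbiz* and 0.31 for *Nfkbia*. Leaving out GB-IL liver 3 kept 3 calls and lost *Nfkb2*, where 576 of all genes were called. Omitting RYGB liver 1, 3 or 4, which enter only through the shared spread, kept *Relb* alone, and omitting RYGB liver 2 kept *Relb* and *Tnfaip3*. Each of these RYGB omissions called between 294 and 346 of all genes. DESeq2 called the same 4 genes (7.81% of all genes higher), and voom with sample quality weights called *Relb*, *Nfkb2* and *Tnfaip3* (3.58%). A fit of the GB-IL and DIO livers alone called none, with 6 of 10 higher at an unadjusted p below 0.05 (13.1% of 13792 genes).

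**Figure D4:**
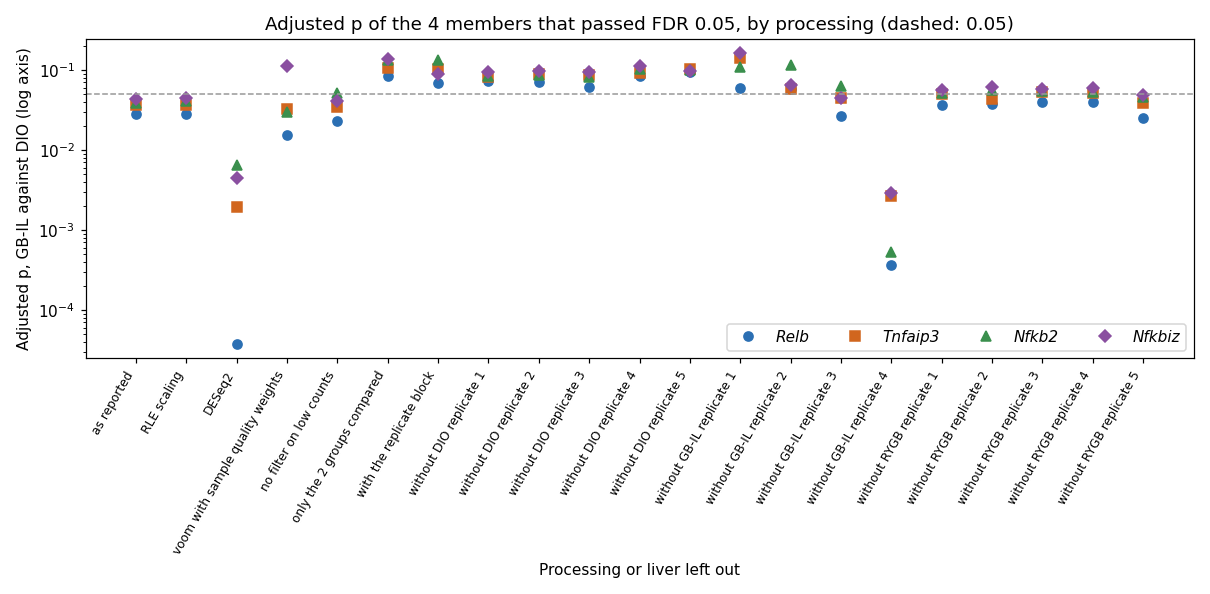
Adjusted p (log axis) of *Relb*, *Tnfaip3*, *Nfkb2* and *Nfkbiz* in GB-IL against DIO is plotted for the reported fit and each of 20 alternatives, with 0.05 dashed. All 4 are above 0.05 without any 1 DIO liver, without GB-IL liver 1 or 2, with the 2 groups alone and with the replicate block. *Relb* is lowest under DESeq2 with all livers (3.76e-05), and without GB-IL liver 4 it falls to 0.000368 (edgeR).

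In RYGB compared with DIO, edgeR called none of the 10 genes, as it called 0% of all genes tested higher. The median log2 fold change was 0.16, beside 0.01 for all genes. *Nfkbiz* alone had an unadjusted p below 0.05 (5.35% of all genes in the higher direction), and it alone had groups without overlap (1.87%). DESeq2 called none (0.451%), and voom with sample quality weights called *Nfkbiz* (adjusted p = 0.0395) and *Rel* (adjusted p = 0.0494), where it called 6.08% of all genes higher. *Rel* had 0.711, 1.78, 1.48, 1.94 and 1.52 CPM in RYGB against 0.733, 2.61, 0.356, 0.113 and 0.865 CPM in DIO. Its groups overlapped, DIO liver 2 being the highest of both, and without that liver the log2 fold change went from 0.66 to 1.51.

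The 2 operations were then compared directly. In GB-IL against RYGB, edgeR called none of the 10 genes (0% of all genes were called higher), with 6 of 10 higher at an unadjusted p below 0.05 (15.3% of all genes). The log2 difference was 1.96 for *Tnfaip3* (SE 0.443, adjusted p = 0.0797, edgeR), 1.69 for *Relb* (SE 0.413, adjusted p = 0.0839, edgeR) and 1.28 for *Nfkbia* (SE 0.321, adjusted p = 0.0839, edgeR). Without GB-IL liver 1 the differences of *Tnfaip3* and *Nfkbia* were 1.18 and 0.64. *Nfkbia* was the only one with all 4 GB-IL livers above every RYGB liver, as were 1.27% of all genes. *Nfkbiz* differed by 0.62 (SE 0.396, adjusted p = 0.351, edgeR), with 1 GB-IL liver above every RYGB liver and 1 below. DESeq2 called *Tnfaip3*, *Relb*, *Nfkbia* and *Nfkb2* (4.61% of all genes higher), and voom with sample quality weights called *Tnfaip3* (0.779%). Without GB-IL liver 4, edgeR called 6 of the 10, namely these 4, *Nfkbie* and *Rela*, where 13.4% of all genes were called higher. That liver was left out after its values were seen, which favours calls.

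The upstream arm of the pathway was measured with 24 adaptors and kinases that lead to NF-κB activation, all of them tested. In GB-IL none was called by edgeR, DESeq2 or voom with sample quality weights, 5 of 24 had an unadjusted p below 0.05, all higher (16.7% of all genes tested), and the median log2 fold change was 0.12, beside 0.04 for all genes. The smallest p-values belonged to *Tab1*, a partner of the TAK kinase (log2 fold change 0.96, SE 0.380, adjusted p = 0.159, edgeR), and *Map3k14*, the kinase that starts *Nfkb2* processing (0.79, SE 0.322, adjusted p = 0.168, edgeR). The receptor adaptor *Myd88* (0.42, SE 0.178) and the kinase *Tbk1* (0.55, SE 0.241) followed. In RYGB none was called by edgeR or DESeq2, 1 of 24 was higher at an unadjusted p below 0.05 (5.35% of all genes), and the median was 0.03. Voom with sample quality weights called 3 of the 24, where it called 1690 of all 14252 genes in either direction. The genes with the smallest p-values were *Traf3*, which keeps *Map3k14* protein low (0.36, SE 0.154, adjusted p = 0.547, edgeR, with all 5 RYGB livers above every DIO liver), and *Irak2*, a kinase below interleukin 1 receptors (0.40, SE 0.188, adjusted p = 0.573, edgeR). Of the 24, *Traf3* alone was separated in this way, as were 1.87% of all genes tested.

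Other proteins that restrain NF-κB were represented by 16 genes, of which 15 were tested. In GB-IL 2 rose (3.15% of all genes) and none fell, 5 had an unadjusted p below 0.05, all higher (16.7%), and the median log2 fold change was 0.11. *Irak3*, a kinase-like brake on Toll-like receptor signalling, rose by 2.38 on the log2 scale (SE 0.502, adjusted p = 0.0297, edgeR), with all 4 GB-IL livers above every DIO liver. Of the 15 it alone was separated in this way, as were 2.67% of all genes tested. *Tnip1*, which binds the *Tnfaip3* product, rose by 1.32 (SE 0.321, adjusted p = 0.0398, edgeR), with 3 of 4 above. *Nfkbib*, encoding IκBβ, had a log2 fold change of 1.58 (SE 0.452, adjusted p = 0.0680, edgeR), and *Zc3h12a*, an RNase that degrades cytokine mRNAs, 1.40 (SE 0.386, adjusted p = 0.0598, edgeR). In RYGB none was called by edgeR, DESeq2 or voom with sample quality weights, none had an unadjusted p below 0.05, and the median was -0.11. There *Pdlim2*, a ubiquitin ligase for nuclear RelA, had a log2 fold change of -0.87 (SE 0.416, adjusted p = 0.577, edgeR), and *Fam105b*, the linear deubiquitinase also called *Otulin*, -0.29 (SE 0.182, adjusted p = 0.673, edgeR). *Tnip3* had 51 counts over all livers and was not tested.

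Well-known NF-κB target genes were represented by 38 genes, of which 37 were in the table and 29 tested. In GB-IL 8 of 29 were called higher (3.15% of all genes) and none lower, 14 had an unadjusted p below 0.05 in the higher direction (16.7%), and the median log2 fold change was 0.93. *Cxcl13*, a B cell chemoattractant, rose by 4.19 on the log2 scale (SE 0.712, adjusted p = 0.0278, edgeR), with all 4 GB-IL livers above every DIO liver, as did *Il1b*, encoding interleukin 1β, by 2.54 (SE 0.450, adjusted p = 0.0278, edgeR). Of the 29 targets 3 were separated in this way, as were 2.67% of all genes tested. *Saa3*, an acute phase protein, rose by 3.89 (SE 0.662, adjusted p = 0.0278, edgeR), although GB-IL liver 4 had 4.83 CPM, below every DIO liver. *Lcn2*, encoding the siderophore-binding lipocalin, rose by 6.30 (SE 1.23, adjusted p = 0.0278, edgeR), from 9.20 to 57.9 CPM in DIO to between 16.6 and 4465 CPM in GB-IL. The other 4 called were *Ier3*, *Mmp9*, *Icam1* and *Ccl19*. In RYGB none was called by edgeR or DESeq2, 3 were higher and 3 lower at an unadjusted p below 0.05 (5.35% and 3.36% of all genes), and the median was 0.09. Voom with sample quality weights called 4 of the 29, where it called 1690 of all 14252 genes in either direction. *Ccl2*, a monocyte chemoattractant, had a log2 fold change of 1.51 in RYGB (SE 0.492, adjusted p = 0.445, edgeR) and *Cd83*, a marker of activated dendritic and B cells, -1.11 (SE 0.354, adjusted p = 0.432, edgeR). *Tnf* (102 counts over all livers), *Il6* (13), *Cxcl2* (327), *Ptgs2* (33), *Nos2* (105), *Sele* (53), *Ccl20* (1) and *Tnfsf13b* (83) had too few counts to be tested.

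**Figure D5:**
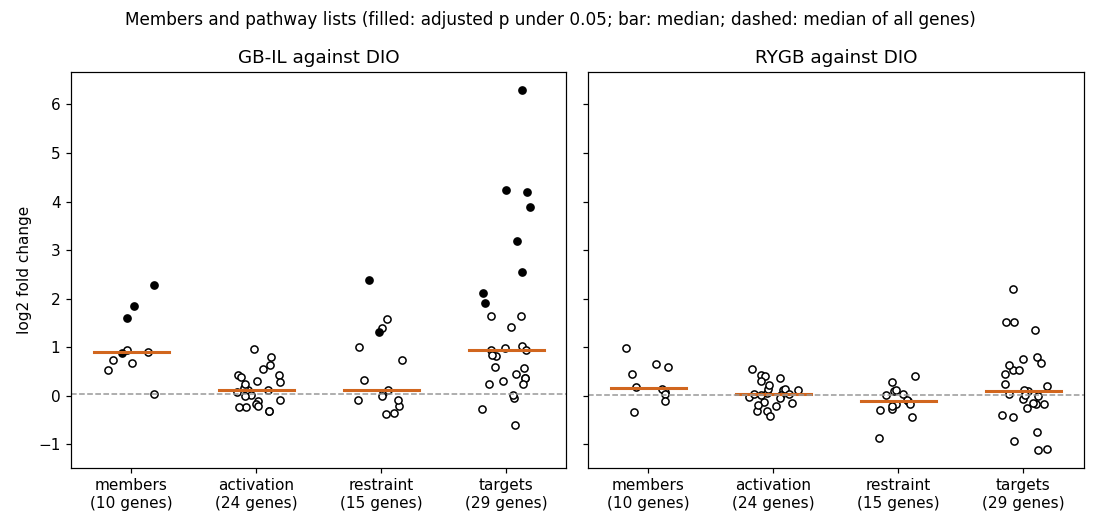
Each point is the log2 fold change (vertical axis) of 1 gene of the 10 subunits and inhibitors, the 24 activating genes, the 15 restraining genes or the 29 targets, filled at an adjusted p below 0.05, with a bar at the median of the list and a dashed line at the median of all genes. In GB-IL against DIO the medians are 0.89, 0.12, 0.11 and 0.93, and in RYGB against DIO 0.16, 0.03, -0.11 and 0.09 with no filled point.

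In GB-IL against RYGB edgeR called none of the 3 lists' genes. Over all genes DESeq2 called 845 and voom with sample quality weights 115. At an unadjusted p below 0.05, where 15.3% of all genes were higher and 6.77% lower, 4 of the 24 activating genes were higher (DESeq2 called 1 and voom with sample quality weights 0), as were 7 of the 15 restraining genes (4 and 1 called) and 15 of the 29 targets, with 1 target lower (10 and 4 called). The lower target was *Cxcl12*, a chemokine of stromal cells, named after its values were seen.

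Markers of other liver cell types were summed in the same livers. Kupffer cell and macrophage markers (8 of 8 tested and higher, 2 called by edgeR) summed to 360 to 630.5 CPM in DIO and to 406, 681, 1802 and 770 CPM in GB-IL livers 1 to 4. Monocyte and neutrophil markers (6 of 8 tested, 6 higher, 3 called) summed to 6.20 to 13.9 CPM in DIO and to 110.2, 53.1, 327 and 11.9 CPM in GB-IL livers 1 to 4. Both sums were highest in GB-IL liver 3, as were *Nfkb1* and *Nfkbie*, and *Nfkb2* was highest in liver 2. The other 7 genes were highest in liver 1, whose macrophage sum lay within the DIO range and whose monocyte and neutrophil sum lay above it. Stellate cell and myofibroblast markers (7 of 8 higher, 1 called) summed to 197 to 308 CPM in DIO and to 898, 302, 220.2 and 296 CPM in GB-IL livers 1 to 4, liver 1 standing apart. Cholangiocyte markers (5 of 6 tested, 4 higher, 2 called) summed to 8.61 to 16.3 CPM in DIO and 13.8 to 49.3 CPM in GB-IL. T and NK cell markers summed to 1.26 to 10.6 CPM in GB-IL and 4.17 to 6.35 CPM in DIO, B and plasma cell markers to 1.36 to 7.38 CPM and 1.49 to 13.0 CPM, and endothelial markers to 186 to 262 CPM and 202 to 269 CPM, and no gene of these 3 lists was called. In RYGB liver 5 the monocyte and neutrophil sum was 91.7 CPM, against 9.86 to 16.5 CPM in the other 4. Its stellate cell and endothelial sums (447 and 553 CPM) were the highest in RYGB too. This liver had the highest *Nfkbie*, *Nfkbiz* and *Tnfaip3* of its group and the lowest *Nfkb2*, and the remaining genes lay between. No marker was at 0 in every liver. Over 24 comparisons (8 lists, 3 pairs of groups) the smallest adjusted p was 0.190 (exact two-sided permutation tests, Benjamini-Hochberg), shared by 4 comparisons, among them monocytes and neutrophils in GB-IL against DIO. The smallest unadjusted p such a permutation test can give is 0.0159 with 4 against 5 livers and 0.00794 with 5 against 5. Cholangiocytes in GB-IL against RYGB stood at 0.0159 (permutation test) and still had 0.190 after adjustment. These tests therefore cannot show that cell types did not differ. The part of these cells in the results above was not tested.

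Genes whose pattern over the 14 livers was most like that of each of the 10 were sought among 12686 others with a mean of at least 1 CPM, by the root mean square difference of log2 CPM, each gene centred on its own mean. *Relb* was nearest to *Gpr137b* (0.246) and *B4galt6* (0.265), *Tnfaip3* to *Srgn* (0.363) and *Rassf2* (0.374), *Nfkbiz* to *Icam1* (0.331) and *Cd33* (0.338), and *Nfkb2* to *Tnfrsf1a* (0.152) and *Hrg* (0.183). *Nfkbia* was nearest to *H3f3b* (0.225) and *Fam214b* (0.227), *Nfkbie* to *Il17ra* (0.225) and *Cd302* (0.235), and *Bcl3* to *Abhd8* (0.242) and *Ppan* (0.246). *Rela* was nearest to *Rnps1* (0.0826) and *Noc2l* (0.102), *Nfkb1* to *Akap9* (0.133) and *Sf3b1* (0.137), and *Rel* to *BC005561* (0.434) and *Ptar1* (0.472). Within the 10, the closest pair was *Nfkb2* with *Nfkbie* (0.306), and for every one of the 10 at least 2 other genes were closer than its closest fellow. The other genes came from 12686 candidates and the fellows from the 10 alone, so this does not show that the 10 varied apart. These distances share the libraries and their depth, are smaller for genes that vary little, and are descriptions.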

How the data were processed

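Liver RNA of 5 DIO, 4 GB-IL and 5 RYGB mice was sequenced, with 18223135 to 28656631 counts per liver. The deposited values are whole counts per gene that the authors made by alignment with TopHat2 to mm10 and counting with HTSeq, without normalization. The submitters' processing notes also list hg19. Neither tool versions nor the annotation nor the use of strand in counting were given in the sources used here. The paper's methods describe amplification of the RNA, and the labels name 2 stranded kits without assigning them to livers, so kit and group cannot be told apart. No label says which livers shared a cage or day, so p-values measure the spread between these livers. The reported fit estimated a single spread per gene over all groups, so each comparison also drew on the group not compared. The groups differed in spread, with common coefficients of variation of 0.541 in GB-IL, 0.244 in DIO and 0.295 in RYGB.

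The group differences were computed with edgeR 4.0.16 in R 4.3.3 (filterByExpr by group, TMM, quasi-likelihood test, a mean for each group over all 14 livers, Benjamini-Hochberg adjustment at an FDR of 0.05). The step was tested on simulated counts with the same spread in every group. That test therefore did not cover the wider spread of the GB-IL livers. Alternatives were RLE scaling, DESeq2 1.42.0, voom with sample quality weights (limma 3.58.1), no filter on low counts, the 2 groups alone, a replicate block and each liver left out. Marker sums were compared by exact permutation tests (scipy 1.17.1). Positions and exon lengths are from GENCODE M21 (GRCm38), to which 24701 of 25212 identifiers matched, and promoters from RefSeq (GRCm38.p6).

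The genes, lists and tests were chosen with earlier results of these data known. All 10 subunits and inhibitors are named. From each pathway list the 4 genes with the smallest p in GB-IL and the 2 with the smallest p in RYGB are named, besides all genes called, and for likeness the 2 nearest genes. Within the groups, no pair of libraries agreed within sampling noise (chi-square per degree of freedom at least 34.9).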

Additional observations from a re-analysis of the deposited data

Results flagged for a closer look

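Of 54 groups of values looked at (the 10 genes and 8 sums of cell type markers in 3 groups), 4 held a liver whose distance to its nearest neighbour took up more of the group's range than Dixon's 95% limit allows, and chance flags about 1 in 20 groups. GB-IL liver 4 had 8.60 CPM of *Nfkb2*, against 19.1 to 20.9 CPM in the other 3 livers. GB-IL liver 1 had 898.2 CPM of stellate cell and myofibroblast markers, against 220.2 to 302 CPM in the others. RYGB liver 5 had 91.66 CPM of monocyte and neutrophil markers, against 9.86 to 16.5 CPM in the others, and 1.315 CPM of T and NK cell markers, against 4.67 to 5.92 CPM.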

How the results depend on the processing

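The calls depended on the fit. In GB-IL against DIO, edgeR called 465 of all genes, DESeq2 1292, the fit of the 2 groups alone 0 (2352 at an unadjusted p below 0.05) and the fit with the replicate block 1. Of the 10 subunits and inhibitors, the restraint list and the target list, 4, 2 and 8 were called. The 2 groups alone and the block called 0 of each (6, 5 and 11 at an unadjusted p below 0.05 in the first, 6, 5 and 10 in the second), and for the restraint list DESeq2 called 4 and voom with sample quality weights 1. In RYGB against DIO, where edgeR called 0 of all genes, DESeq2 called 97, voom with sample quality weights 1690 and the 2 groups alone 33. Voom there called 2 of the 10 genes, 3 activating genes and 4 targets. In GB-IL against RYGB, with 0 called by edgeR, DESeq2 called 845 of all genes, 4 of the 10 genes, 1 activating gene, 4 restraining genes and 10 targets. Voom with sample quality weights called 115, 1 of the 10 genes, 1 restraining gene and 4 targets, and without a filter on low counts 51 genes and 2 targets were called.

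Leaving out each liver in turn gave 0 to 3572 genes in GB-IL against DIO, 0 to 5 in RYGB against DIO and 0 to 3120 in GB-IL against RYGB. In the same 3 comparisons it gave 0 to 8, 0 to 0 and 0 to 6 of the 10 genes, 0 to 3, 0 to 0 and 0 to 4 activating genes, 0 to 6, 0 to 0 and 0 to 7 restraining genes, and 0 to 15, 0 to 0 and 0 to 15 targets. The highest values in GB-IL were those without GB-IL liver 4.

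Signs turned for values that were not called. Voom with sample quality weights gave -0.16 for *Bcl3* in GB-IL against DIO and -0.32 for *Bcl3* and -0.87 for *Rel* in GB-IL against RYGB, and the block gave -0.10 for *Rel* there. With single livers left out, *Nfkb1* ranged from -0.12 to 0.18 in GB-IL against DIO and from -0.29 to 0.0041 in GB-IL against RYGB, *Nfkbie* from -0.0377 to 0.113 and *Tnfaip3* from -0.284 to 0.0733 in RYGB against DIO, and in GB-IL against RYGB *Rel* from -0.66 to 0.34, *Nfkbiz* from -0.17 to 0.90 and *Bcl3* from -0.29 to 0.39. Of 600 values of the 10 genes under the alternatives, 514 kept direction and side of the threshold, but most of the 600 belonged to results not called by the reported fit. Of the rest, 50 lost a call, 17 gained one and 19 turned sign. All 50 lost calls were of *Relb*, *Nfkb2*, *Tnfaip3* or *Nfkbiz* in GB-IL against DIO. The cause of these shifts was not tested.

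The replicate numbers were not treated as pairs: deviations of livers with the same number correlated at -0.381 to 0.381, with 2 of 13 pairs over 0.1. The values are limited by 4 and 5 livers per group, by an unoperated control, by kits not assigned to livers and, for *Rel*, by 2 to 66 reads per liver.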
